A study of Bos taurus with 8 samples.

Results

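The 56 genes described here encode the machinery that copies DNA and the enzymes that supply its building blocks. They were listed by gene symbol, and earlier results of these data were known when they were chosen. The arrays hold 24415 transcript clusters, which are sets of array probes, and 18457 of them carry exactly 1 gene symbol. Of the 56 genes, 53 had at least 1 cluster that carried their symbol alone. *RFC1* and *RPA2* shared the name of their cluster with another gene and *E2F7* was not analysed here, so no value is given for these 3 genes. The samples were bovine granulosa cells, the steroid-producing cells of the ovarian follicle, aspirated from ovaries of a commercial abattoir, frozen and thawed. All were cultured without serum on collagen with FSH, IGF-1 and androstenedione, at LOL and NOL alike. On day 6 the cells were placed at a low oxygen level (LOL, 1% oxygen) or kept at a normal oxygen level (NOL, 21% oxygen), and RNA was collected on day 8. Each group held 4 samples, LOL 1 to LOL 4 and NOL 1 to NOL 4, with 1 array per sample.

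A cell copies its genome once per cycle. In G1 phase the origin recognition complex, CDC6 and CDT1 load rings of the MCM helicase onto DNA, and in S phase the kinases CDK2 and CDC7 turn them into active helicases with CDC45 and GINS. DNA polymerases then copy the strands, held on DNA by the sliding clamp PCNA, while ribonucleotide reductase and thymidine enzymes supply deoxynucleotides. Many of these genes are transcribed at the entry into S phase under the E2F factors. Granulosa cells divide in growing follicles and leave the cell cycle when they luteinize.

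Values are log2 signals of the robust multichip average method, and differences are LOL minus NOL. Each cluster was tested with limma, and p-values were adjusted over all 24415 clusters. A gene is said to have risen or fallen where the adjusted p was under 0.05, and is called changed over 2-fold where the fold also passed 2. The values hold no measure of background, and 49.1% of all clusters had a mean under 4 at NOL. Where the lower group of a gene had a mean under 4, its fold is therefore given as "at least". Whether the 4 samples of a group are independent cultures is not stated. The p-values thus rest on the spread among these samples alone, and that spread may be technical.

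The 8 arrays had medians of 4.12 to 4.18 at LOL and 4.06 to 4.08 at NOL, and no 2 arrays held identical values. Of the 8, LOL 3 was the array with the highest median. Beside the marker counts that follow, 20.5% of all clusters fell and 20.5% rose. Among clusters with a mean of at least 4, fitted alone, 38.2% fell and 30.8% rose. All 10 low oxygen response genes listed rose, and all 7 measured proliferation markers fell, among them *MKI67*, which marks cycling cells and was at least 2.13-fold lower (adjusted p = 1.6e-05). Of 10 granulosa cell markers, 6 fell, 1 rose and 3 did not pass the test, and their summed linear signal was 2834 to 3223 at LOL and 5590 to 5763 at NOL. All 6 measured markers of fibroblasts and smooth muscle rose, by log2 differences between 0.165 and 1.76. Their sums were 3813 to 4022 at LOL and 3025 to 3307 at NOL. Of 6 leukocyte markers only *CD68* passed the test, at 0.31, and the leukocyte marker *PTPRC* averaged 1.87 at LOL and 1.91 at NOL. Of 6 endothelial markers, *TEK* and *CLDN5* rose, and their list summed to 110 to 117 at LOL and 57.1 to 66.1 at NOL. *CLDN5* made up most of that gap, with a mean linear signal of 65.6 at LOL and 17.6 at NOL, and *PECAM1*, *VWF*, *CDH5* and *EMCN* did not pass. The leukocyte list summed to 77.0 to 93.0 at LOL and 67.2 to 76.8 at NOL. Of 3 measured theca markers, *INSL3* rose and *LHCGR*, which is active in granulosa cells as well, fell. *CYP17A1*, the enzyme that defines theca steroid synthesis, averaged 3.35 at LOL and 3.38 at NOL. The part of these markers in the results below was not tested. In total RNA of a culture, fewer cells in S phase and less RNA per cell cannot be told apart.

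Replication genes mostly fell at low oxygen, but 6 of them rose. Of the 53 measured genes, 32 fell (60.4%), 6 rose (11.3%) and 15 did not pass the test, whereas 20.5% of all clusters fell, 20.5% rose and 41.0% changed in either direction. With each array centred on its median, which moves the median difference of all clusters to -0.0050, 5693 clusters fell and 3585 rose, against 4999 and 5017 as deposited, and 34 members fell and 6 rose. The falls led with *RRM2*, the small subunit of ribonucleotide reductase (at least 5.84-fold), the histone chaperone *ASF1B* (at least 3.64-fold) and *POLE*, the catalytic subunit of the leading-strand polymerase (at least 3.12-fold). The genes that rose were *POLE3*, *POLD2*, *RPA1*, *LIG1*, *GINS4* and *RFC5*, with log2 differences of 0.30 to 1.09. The median log2 difference was -0.52 over the 53 genes and 0.06 over all clusters, and 43 of the 53 differences were negative.

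Over 2-fold, 11 of the 53 genes were lower (20.8%), namely *RRM2*, *ASF1B*, *POLE*, *TK1*, *MCM10*, *PCNA*, *CDC6*, *MCM6*, *CDC25A*, *POLE2* and *WDHD1*. The share among all clusters was 2.65%. Only *POLE3* was higher over 2-fold, against 2.22% of all clusters. The LOL and NOL arrays did not overlap in 39 of the 53 genes (73.6%), compared with 39.4% of all clusters. In 33 of these genes the LOL arrays were the lower ones, against 20.3% of all clusters, and in 6 the higher ones, against 19.1%. Among the 12623 clusters with a mean of at least 4, fitted alone, 38.2% fell and 30.8% rose, against 28 of the 45 members among them that fell (62.2%) and 6 that rose (13.3%). At that level 4.44% of clusters were lower over 2-fold, against 8 of the 45 members (17.8%), and 4.04% were higher over 2-fold, against 1 member.

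**Figure D1:**
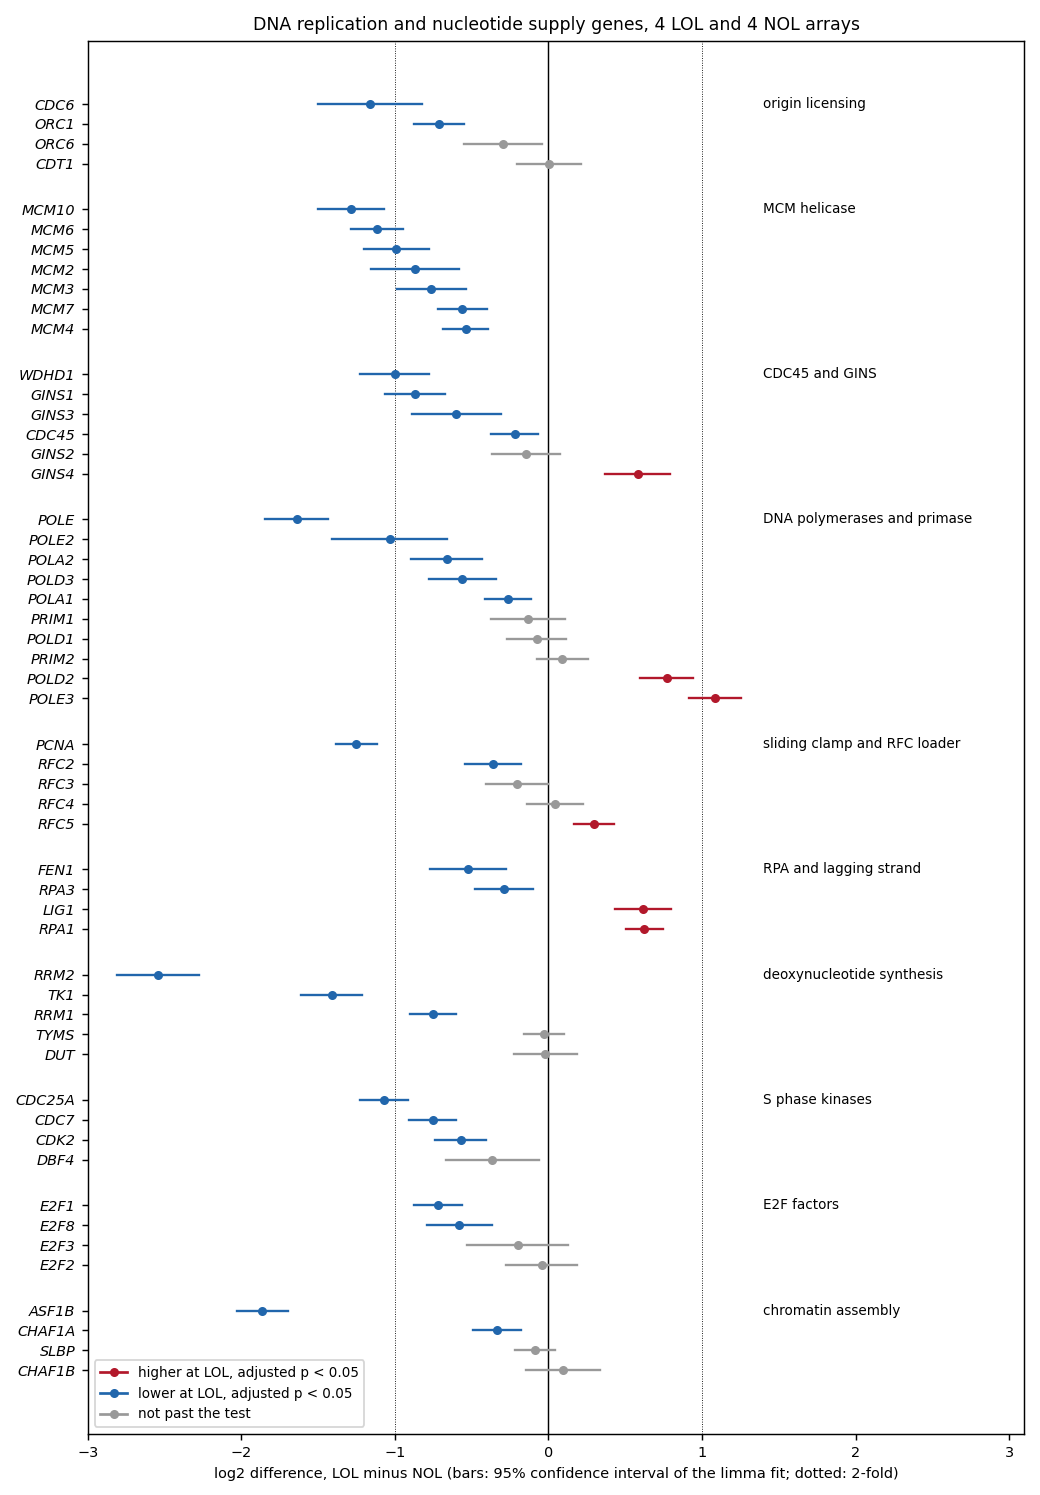
Log2 difference (LOL minus NOL, x axis) of the 53 measured genes, ordered within 10 functional groups, with the 95% confidence interval of the limma fit from 4 LOL and 4 NOL arrays. All 7 genes of the MCM group lie to the left of 0, while *POLE3* and *POLD2* lie to the right of the other polymerase genes.

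Of the 4 measured genes of origin licensing, 2 fell and 2 did not pass the test. *CDC6*, the ATPase that brings the MCM ring to the origin recognition complex, had signals of 2.66, 3.34, 2.90 and 2.76 at LOL, against 3.82, 4.00, 4.29 and 4.20 at NOL. LOL 2 lay above the other LOL arrays but still below every NOL array, and *CDC6* was at least 2.24-fold lower (adjusted p = 1.7e-04). *ORC1*, the ATPase subunit of the origin recognition complex that comes and goes with the cycle, had 3.37, 3.41, 3.40 and 3.35 at LOL and 4.02, 4.01, 4.07 and 4.28 at NOL. The groups lay well apart, with the LOL arrays within a narrow band, and the fall was at least 1.64-fold (adjusted p = 2.6e-05).

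*ORC6*, the smallest subunit of that complex, had 4.27, 4.16, 3.82 and 4.10 at LOL and 4.36, 4.55, 4.15 and 4.47 at NOL. LOL 3 was the lowest array and NOL 3 lay within the LOL range, and the log2 difference of -0.30 did not pass (adjusted p = 0.063). Without LOL 1 or NOL 3 it passed, with adjusted p of 0.041 and 0.026. *CDT1*, which works with *CDC6*, had 3.99, 3.78, 4.06 and 4.08 at LOL and 4.10, 3.79, 3.93 and 4.08 at NOL. The arrays of both groups were interleaved, and the 95% interval of the *CDT1* difference was -0.21 to 0.21.

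All 7 measured genes of the MCM group fell, with no overlap between LOL and NOL in any of them. Of all clusters, 20.5% fell, and 20.3% were lower at LOL without overlap. *MCM10*, a replication factor that is not part of the ring itself, had signals of 4.78, 4.54, 4.49 and 4.55 at LOL, against 5.69, 5.80, 6.02 and 6.00 at NOL. It fell most within the group, 2.44-fold (SE of the log2 difference 0.095, adjusted p = 3.4e-06). *MCM6* had 5.14, 5.03, 5.07 and 5.06 at LOL and 6.19, 6.02, 6.21 and 6.35 at NOL. *MCM6* was 2.17-fold lower, more than any other subunit of the ring (adjusted p = 1.9e-06). *MCM5* had 4.91, 4.98, 5.05 and 4.92 at LOL and 5.76, 5.95, 5.90 and 6.22 at NOL. Its fold was 1.99, just under the threshold of 2, and NOL 4 was the highest array. The *MCM5* fold passed 2 without LOL 3, NOL 1 or NOL 3, at log2 differences of -1.02, -1.06 and -1.01.

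The other subunits of the ring fell less. *MCM2* averaged 4.26 ± 0.20 at LOL and 5.13 ± 0.23 at NOL (SD, n = 4 each), a 1.83-fold fall, and *MCM3* was 1.70-fold lower. *MCM7* and *MCM4* were 1.47-fold and 1.45-fold lower, with adjusted p of 1.3e-04 and 1.0e-04. A second cluster of *MCM4* had a log2 difference of -0.52, close to the -0.54 of the first. The 6 subunits form the ring in equal number, and their log2 differences thus ranged between -1.12 and -0.54. The 95% interval of *MCM6* (-1.29 to -0.95) did not reach those of *MCM4* (-0.69 to -0.39) or *MCM7* (-0.72 to -0.40), although the differences between subunits were not tested.

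Partners that turn the MCM ring into a moving helicase did not share 1 direction. *WDHD1*, which links the helicase to polymerase alpha, had 3.93, 4.08, 3.87 and 4.27 at LOL and 4.94, 4.96, 5.03 and 5.23 at NOL. The groups were clearly apart, and the fall was 2.0-fold (adjusted p = 2.7e-05), though it was under 2-fold without LOL 1, LOL 3 or NOL 4 (log2 differences of -0.97, -0.95 and -0.94). *GINS1*, a subunit of the 4-part GINS complex, had 5.27, 5.29, 5.12 and 4.93 at LOL and 6.03, 5.93, 6.06 and 6.07 at NOL, and was 1.83-fold lower (adjusted p = 2.5e-05). *GINS3* had 3.5, 3.90, 3.66 and 3.88 at LOL and 4.07, 4.31, 4.32 and 4.64 at NOL, and was at least 1.52-fold lower (adjusted p = 0.0041). In both subunits every LOL array lay under every NOL array.

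*GINS4*, another subunit of the same complex, had 5.13, 4.81, 4.96 and 4.82 at LOL, against 4.16, 4.33, 4.42 and 4.49 at NOL. All 4 LOL arrays lay above the NOL arrays, and *GINS4* rose 1.49-fold (adjusted p = 7.9e-04). *GINS2*, the remaining subunit, had 5.82, 5.88, 5.73 and 5.98 at LOL and 5.74, 5.97, 6.16 and 6.12 at NOL. NOL 1 and NOL 2 lay within the LOL range, and the interval of the *GINS2* difference was -0.37 to 0.077. *CDC45* had a log2 difference of -0.22 (adjusted p = 0.027). Its groups did not overlap, but the call was lost without LOL 2, LOL 3, LOL 4, NOL 1 or NOL 4, with adjusted p of 0.053 to 0.071, and with a variance trend (adjusted p = 0.052).

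**Figure D2:**
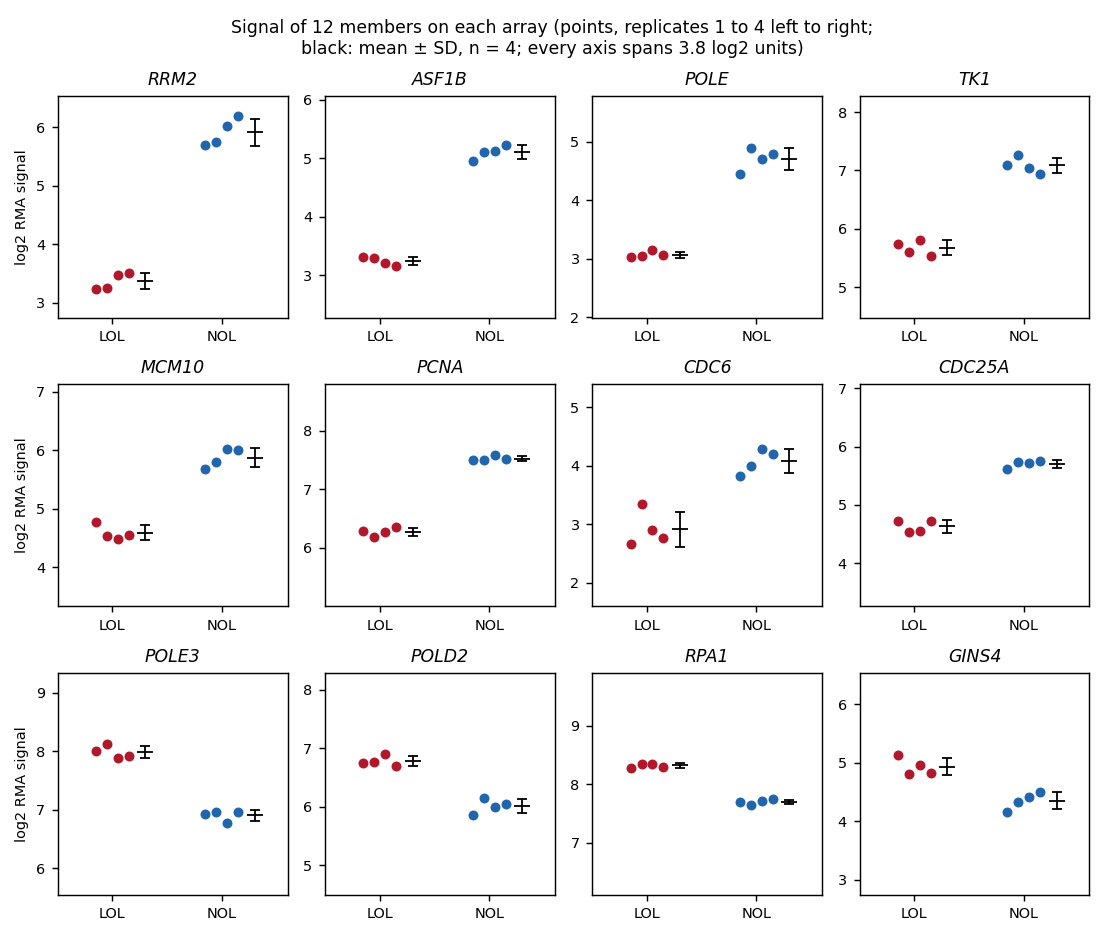
Log2 signal of 12 genes on each array, LOL left and NOL right, with replicates 1 to 4 in order and the mean ± SD in black (n = 4). The first 8 genes lie lower on all LOL arrays than on any NOL array, and *POLE3*, *POLD2*, *RPA1* and *GINS4* lie higher.

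The replicative polymerases split by subunit. Of 10 genes for polymerases and primase, 5 fell, 2 rose and 3 did not pass, whereas 20.5% of all clusters fell and 20.5% rose. The share of these genes that rose (20.0%) was thus near that of all clusters. Polymerase epsilon, which extends the leading strand, showed both the largest fall and the largest rise of these 10 genes. Its catalytic subunit *POLE* had signals of 3.02, 3.05, 3.14 and 3.06 at LOL, against 4.45, 4.89, 4.70 and 4.79 at NOL. The LOL arrays lay close together while NOL 1 was the lowest of the NOL arrays, and *POLE* fell at least 3.12-fold (SE of the log2 difference 0.092, adjusted p = 6.1e-07). *POLE2*, its second subunit, had 1.74, 1.80, 1.78 and 1.80 at LOL and 2.36, 2.99, 2.63 and 3.28 at NOL. These signals were near the low end of the arrays, and the NOL arrays spread widely. *POLE2* was at least 2.05-fold lower (adjusted p = 6.8e-04), and without NOL 2 or NOL 4 the fold was under 2, at log2 differences of -0.98 and -0.88.

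*POLE3*, a small histone-fold subunit of polymerase epsilon that also belongs to a chromatin remodeling complex, had 8.01, 8.13, 7.89 and 7.91 at LOL, against 6.93, 6.95, 6.77 and 6.95 at NOL. Every LOL array lay above every NOL array, and *POLE3* rose 2.12-fold (SE of the log2 difference 0.075, adjusted p = 2.2e-06). Its linear signal averaged 254 ± 19.7 at LOL and 120 ± 7.01 at NOL (SD, n = 4 each). *POLE4*, the histone-fold partner of *POLE3* and not among the 56 genes, had a log2 difference of 0.058 and did not pass (adjusted p = 0.56).

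Polymerase delta, which copies the lagging strand, was split as well. *POLD3*, an accessory subunit, averaged 4.67 ± 0.18 at LOL and 5.23 ± 0.11 at NOL and fell 1.47-fold (adjusted p = 0.0010). *POLD2*, which bridges the catalytic subunit and *POLD3*, had 6.75, 6.77, 6.90 and 6.70 at LOL and 5.86, 6.15, 5.99 and 6.04 at NOL. The groups did not overlap and *POLD2* rose 1.71-fold (adjusted p = 2.5e-05). The catalytic subunit *POLD1* averaged 4.66 ± 0.12 at LOL and 4.74 ± 0.13 at NOL, with an interval of -0.27 to 0.12 for the difference, and a second, dimmer cluster of *POLD1* did not pass either (adjusted p = 0.15).

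Polymerase alpha and primase lay the first primers of each strand. *POLA2* and *POLA1*, both subunits of polymerase alpha, fell, at least 1.58-fold and 1.20-fold, with adjusted p of 5.5e-04 and 0.0094. The primase subunit *PRIM1* had 5.05, 5.0, 4.59 and 4.91 at LOL and 4.92, 5.02, 4.95 and 5.19 at NOL. LOL 3 was lowest, while LOL 1 and LOL 2 lay among the NOL arrays, and the adjusted p was 0.36. *PRIM2* had 5.25, 5.20, 5.35 and 5.33 at LOL and 5.15, 5.34, 5.06 and 5.22 at NOL. These arrays overlapped too, with an interval of -0.076 to 0.26 for *PRIM2*.

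The sliding clamp fell, while the subunits of its loader were split. Of the 5 measured genes of clamp and loader, 2 fell (40.0%), 1 rose (20.0%) and 2 did not pass, whereas 20.5% of all clusters fell and 20.5% rose. *PCNA*, the ring that holds polymerases on DNA and a common marker of proliferation, had signals of 6.28, 6.19, 6.27 and 6.36 at LOL, against 7.5, 7.5, 7.59 and 7.52 at NOL. The 2 groups lay far apart for their narrow spread, and *PCNA* was 2.38-fold lower (SE of the log2 difference 0.060, adjusted p = 2.4e-07). Its linear signal averaged 77.5 ± 3.73 at LOL and 185 ± 5.53 at NOL (SD, n = 4 each).

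The replication factor C subunits load the clamp. *RFC2* had 5.82, 5.88, 5.61 and 5.85 at LOL and 6.16, 6.00, 6.24 and 6.20 at NOL, and fell 1.28-fold (adjusted p = 0.0053). *RFC5* had 7.31, 7.22, 7.32 and 7.34 at LOL and 7.04, 6.94, 7.0 and 7.03 at NOL, and rose 1.23-fold (adjusted p = 0.0023). Neither of these subunits overlapped between the groups, so they moved in opposite directions within 1 complex. *RFC3* had 5.65, 5.57, 5.33 and 5.70 at LOL and 5.88, 5.72, 5.65 and 5.82 at NOL. *RFC4* had 6.29, 6.26, 6.16 and 6.47 at LOL and 6.29, 6.38, 6.20 and 6.14 at NOL. Both overlapped between the groups and did not pass (adjusted p = 0.10 for *RFC3* and 0.71 for *RFC4*).

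Genes for the handling of single strands and for the lagging strand went both ways. *RPA1*, the large subunit of the protein that coats single-stranded DNA, had 8.28, 8.35, 8.35 and 8.30 at LOL, against 7.69, 7.64, 7.71 and 7.74 at NOL. All LOL arrays were above all NOL arrays, and *RPA1* rose 1.54-fold (adjusted p = 1.1e-05). *RPA3*, the small subunit of the same protein, had 8.04, 7.94, 8.02 and 7.95 at LOL and 8.48, 8.33, 8.13 and 8.17 at NOL. It was 1.22-fold lower (adjusted p = 0.019), with NOL 1 the highest array and no overlap between the groups.

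*LIG1*, the ligase that joins the lagging-strand fragments, had 5.13, 5.33, 5.36 and 5.33 at LOL and 4.57, 4.73, 4.82 and 4.57 at NOL. It rose 1.53-fold (adjusted p = 1.8e-04), with LOL 1 under the other LOL arrays. *FEN1*, the nuclease that trims the same fragments before *LIG1* acts, had 3.8, 3.87, 3.96 and 4.03 at LOL and 4.17, 4.46, 4.39 and 4.73 at NOL. It fell at least 1.44-fold (adjusted p = 0.0038), again with no overlap between the groups.

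**Figure D3:**
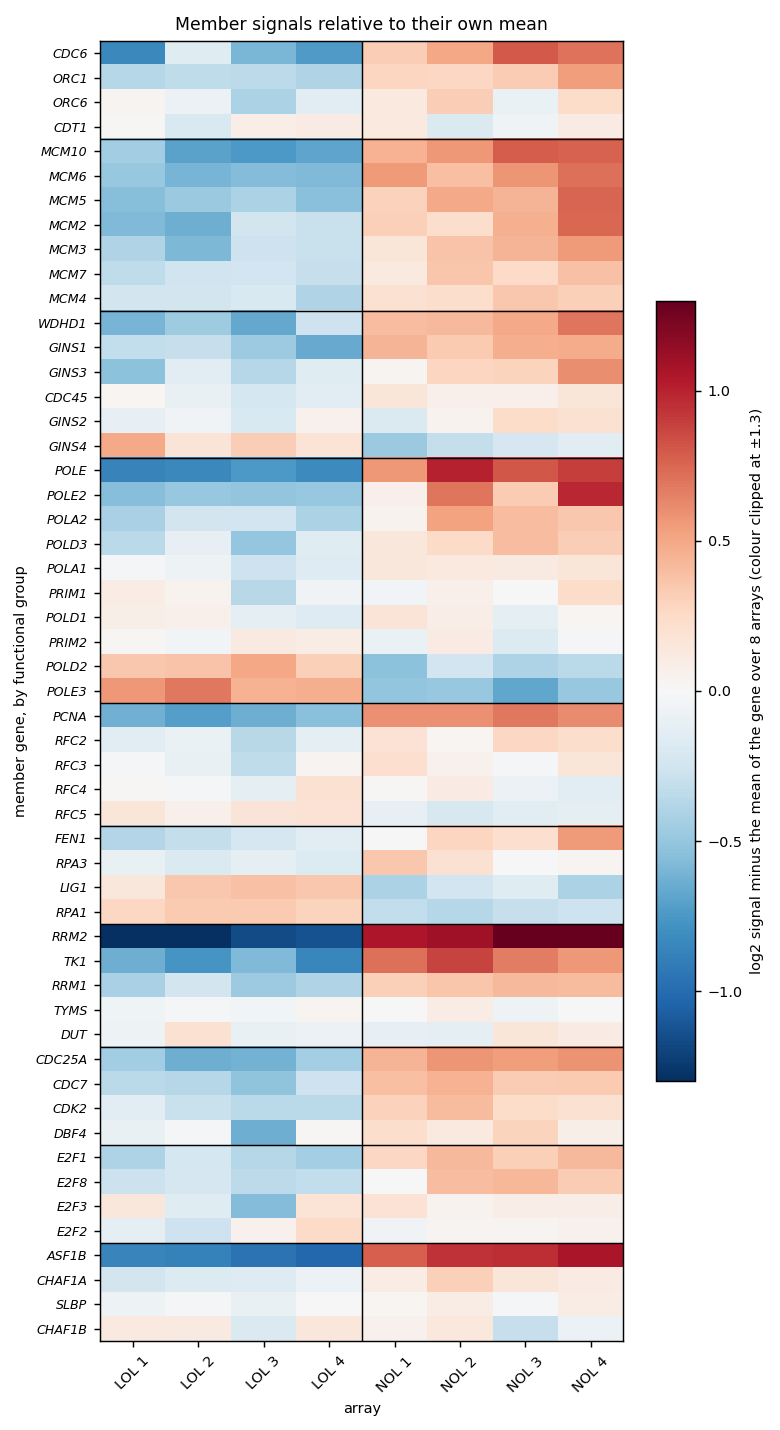
Log2 signal of each of the 53 genes minus its own mean over 8 arrays (colour, clipped at ±1.3), with genes by functional group in rows and the 4 LOL arrays left of the 4 NOL arrays. The 6 genes that rose are red on the LOL side, only faintly so for *RFC5* (log2 difference 0.30). The other genes of their groups are mostly blue or pale there, and only *RRM2* exceeds the colour range.

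Among the genes of deoxynucleotide supply, those of ribonucleotide reductase and thymidine kinase fell, while that of thymidylate synthase did not pass. Deoxynucleotides themselves were not measured. *RRM2*, whose protein is made in S phase and limits the reductase, had signals of 3.24, 3.26, 3.48 and 3.51 at LOL, against 5.70, 5.75, 6.02 and 6.20 at NOL. This was the widest gap among the 53 genes, and *RRM2* was at least 5.84-fold lower (SE of the log2 difference 0.12, adjusted p = 2.2e-07). *RRM1*, the large subunit, had 6.29, 6.47, 6.24 and 6.32 at LOL and 7.02, 7.07, 7.13 and 7.12 at NOL. *RRM1* fell 1.69-fold (adjusted p = 1.1e-05), and its interval of -0.90 to -0.61 lay apart from that of *RRM2* (-2.81 to -2.28). *RRM2B*, the alternative small subunit that serves cells outside S phase and is not among the 56 genes, had 3.45, 3.69, 3.40 and 3.79 at LOL and 4.14, 3.71, 4.12 and 3.82 at NOL. NOL 2 lay under LOL 4, and the fall of *RRM2B* was at least 1.29-fold (adjusted p = 0.038).

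*TK1*, the S phase thymidine kinase, had 5.75, 5.61, 5.81 and 5.53 at LOL and 7.10, 7.26, 7.05 and 6.94 at NOL. The gap between the groups was several times the spread within them, and *TK1* fell 2.66-fold (adjusted p = 1.2e-06). *TYMS*, which makes thymidylate from deoxyuridylate, had 6.58, 6.62, 6.60 and 6.67 at LOL and 6.64, 6.73, 6.57 and 6.64 at NOL. The arrays were interleaved, and the interval of the *TYMS* difference was -0.16 to 0.10, so a fall as large as that of *TK1* lies outside it. *DUT*, which keeps uracil out of DNA, had 2.65, 2.91, 2.62 and 2.64 at LOL and 2.61, 2.60, 2.87 and 2.82 at NOL. These signals were low in both groups, and the *DUT* difference did not pass (adjusted p = 0.88).

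Kinases and the phosphatase of S phase entry were lower at LOL. *CDC25A*, the phosphatase that activates CDK2, had 4.72, 4.53, 4.55 and 4.73 at LOL and 5.61, 5.74, 5.71 and 5.75 at NOL, and fell 2.10-fold (adjusted p = 1.6e-06). *CDC7*, the kinase that fires the loaded MCM rings, had 6.33, 6.31, 6.16 and 6.41 at LOL and 7.07, 7.13, 7.01 and 7.02 at NOL, and fell 1.69-fold (adjusted p = 1.3e-05). *CDK2* itself had 4.83, 4.68, 4.62 and 4.62 at LOL and 5.27, 5.39, 5.21 and 5.17 at NOL, and fell 1.49-fold (adjusted p = 1.5e-04). Every LOL array was under every NOL array in these 3 genes. *DBF4*, the activating subunit of CDC7, had 4.47, 4.55, 3.94 and 4.59 at LOL and 4.80, 4.70, 4.86 and 4.65 at NOL. LOL 3 lay far under the other LOL arrays and the groups did not overlap, yet *DBF4* missed the threshold with a log2 difference of -0.37 (adjusted p = 0.054). Without LOL 3 the *DBF4* difference was -0.22 and passed (adjusted p = 0.043), and it also passed without LOL 2 or LOL 4, with adjusted p of 0.0497 and 0.038.

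Of the 4 measured E2F genes, *E2F1* and *E2F8* fell. *E2F1*, an activator of S phase genes, had 4.22, 4.39, 4.25 and 4.17 at LOL and 4.89, 5.04, 4.93 and 5.04 at NOL. It was 1.64-fold lower with a clear gap between the groups (adjusted p = 2.1e-05). *E2F8*, an atypical E2F that represses the same promoters, had 3.44, 3.5, 3.38 and 3.40 at LOL and 3.72, 4.12, 4.15 and 4.05 at NOL. It was at least 1.49-fold lower (adjusted p = 7.5e-04), and NOL 1 was the lowest of the NOL arrays.

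The other activators did not pass. *E2F3* had 4.81, 4.51, 4.10 and 4.84 at LOL and 4.85, 4.71, 4.75 and 4.75 at NOL. The LOL arrays spread more widely than the NOL arrays, with LOL 3 lowest, and the adjusted p was 0.31. *E2F2* had 4.08, 3.93, 4.26 and 4.45 at LOL and 4.16, 4.24, 4.24 and 4.26 at NOL. LOL 4 was above and LOL 1 and LOL 2 were below all NOL arrays, and the interval of the *E2F2* difference was -0.28 to 0.19.

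Chromatin assembly behind the fork was marked by *ASF1B*, a histone chaperone of proliferating cells, with 3.31, 3.29, 3.21 and 3.15 at LOL, against 4.95, 5.11, 5.13 and 5.23 at NOL. The groups were far apart, and *ASF1B* fell at least 3.64-fold (SE of the log2 difference 0.074, adjusted p = 8.9e-08). The paralogue *ASF1A*, not among the 56 genes, was 1.19-fold lower (adjusted p = 0.013). *CHAF1A*, the large subunit of chromatin assembly factor 1, had 3.52, 3.58, 3.59 and 3.69 at LOL and 3.86, 4.07, 3.92 and 3.87 at NOL, and fell at least 1.26-fold (adjusted p = 0.0032).

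*CHAF1B*, the next subunit of the same factor, had 5.52, 5.51, 5.21 and 5.54 at LOL and 5.45, 5.53, 5.10 and 5.32 at NOL. LOL 3 and NOL 3 were the lowest arrays of their groups, and the interval of the *CHAF1B* difference was -0.15 to 0.34. *SLBP*, which binds the stem-loop of histone mRNA, had 5.03, 5.08, 5.0 and 5.10 at LOL and 5.12, 5.19, 5.07 and 5.19 at NOL. The values of *SLBP* overlapped and its log2 difference of -0.090 did not pass (adjusted p = 0.25).

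Genes of the same pathways outside the 56 were described from 4 further lists. Beside their counts, 20.5% of all clusters fell and 20.5% rose. Among clusters with a mean of at least 4, fitted alone, 38.2% fell and 30.8% rose. Of 33 measured replication factors, 16 fell (48.5%), 4 rose (12.1%) and 13 did not pass, with a median log2 difference of -0.28. *CHTF8*, a part of an alternative clamp loader, fell 2.25-fold, *ORC3*, a core subunit of the origin recognition complex, 2.06-fold and the PCNA-binding protein *PCLAF* at least 2.10-fold, with adjusted p of 1.2e-06 to 6.8e-04. *POLD4*, the smallest subunit of polymerase delta, had 5.64, 5.28, 5.40 and 5.34 at LOL and 4.25, 4.20, 4.10 and 4.02 at NOL, and rose 2.42-fold (adjusted p = 2.5e-06). *DNA2*, a nuclease and helicase that trims long flaps, rose at least 2.36-fold (adjusted p = 4.0e-06). In polymerase delta, *POLD2* and *POLD4* thus rose, *POLD3* fell and *POLD1* did not pass. *MCMBP*, the brightest of the list that did not pass, had a log2 difference of -0.12.

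Of 14 other measured deoxynucleotide enzymes, 8 fell (57.1%), 2 rose (14.3%) and 4 did not pass. *SAMHD1*, which degrades deoxynucleotides, had 4.24, 4.46, 4.49 and 4.52 at LOL and 5.89, 5.90, 6.07 and 6.12 at NOL. It fell 2.96-fold (adjusted p = 5.0e-07), so a gene of deoxynucleotide breakdown fell beside genes of synthesis. *DCK*, the deoxycytidine kinase, has 2 clusters that passed in opposite directions, with log2 differences of 0.78 and -0.32 and adjusted p of 8.0e-06 and 0.0049, so no direction is given for it. It is counted among the 2 that rose, through its brighter cluster. *NME2*, a nucleoside diphosphate kinase and the brightest enzyme that did not pass, averaged 9.29 at LOL and 9.31 at NOL.

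Of 17 measured genes of purine and pyrimidine synthesis, which supply ribonucleotides as well, 10 fell (58.8%), 5 rose (29.4%) and 2 did not pass. The share that rose was near the 30.8% among clusters with a mean of at least 4. *PRPS2*, which makes the ribose phosphate donor, had 5.62, 5.49, 5.30 and 5.34 at LOL and 7.78, 7.67, 7.26 and 7.45 at NOL, and fell 4.29-fold (adjusted p = 6.5e-07). *DHODH*, the pyrimidine enzyme of the inner mitochondrial membrane, had 6.40, 6.48, 6.34 and 6.31 at LOL and 4.90, 4.73, 4.94 and 5.14 at NOL. It rose 2.74-fold (adjusted p = 1.0e-06), while *CAD* and *UMPS*, the enzymes before and after it in the same pathway, fell, at least 1.62-fold and 1.62-fold, with adjusted p of 9.1e-04 and 7.2e-06. *CTPS1* did not pass, with a log2 difference of -0.19 (adjusted p = 0.055).

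Of 7 measured partners of the E2F factors and pocket proteins, 5 fell (71.4%) and 2 did not pass. *E2F4*, an E2F that acts with the pocket proteins as a repressor, had 4.86, 4.58, 4.72 and 4.75 at LOL and 5.95, 6.03, 6.06 and 6.17 at NOL, and fell 2.51-fold (adjusted p = 7.5e-07). The retinoblastoma gene *RB1* and its relative *RBL2* were 1.51-fold and 1.64-fold lower, with adjusted p of 1.9e-04 and 1.4e-05. *E2F5* averaged 6.93 in both groups.

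**Figure D4:**
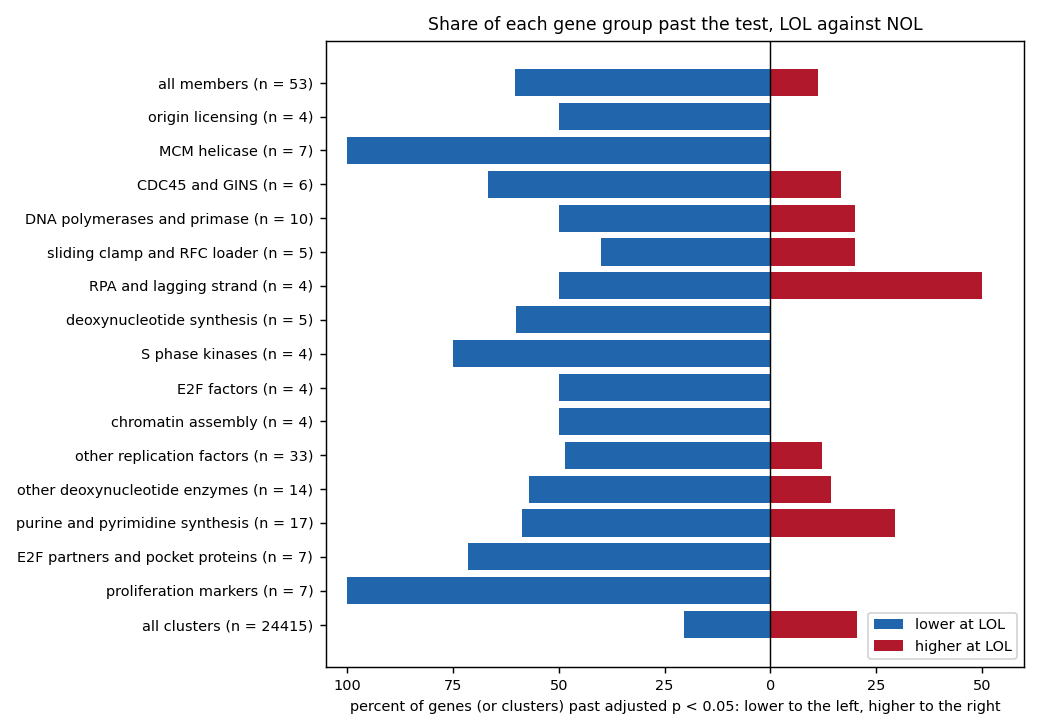
Percent of genes past an adjusted p of 0.05, lower at LOL drawn to the left of 0 and higher at LOL to the right, for all 53 members, their 10 functional groups, 4 further pathway lists, proliferation markers and all 24415 clusters. All 7 MCM genes lie on the lower side, while the group of RPA and lagging strand genes is split evenly.

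Within the groups, single arrays differed in how they ranked on these genes. NOL 4 was the highest of all 8 arrays in 17 of the 53 genes, and NOL 1 was the lowest of the NOL arrays in 25. The median deviation of NOL 4 from the mean of the other NOL arrays was 0.063 over the 53 genes, and that of NOL 1 was -0.093. LOL 3 was the lowest of all 8 arrays in 17 genes, among them *DBF4*, *E2F3* and *PRIM1*. With 1 array left out at a time, the count of genes that fell stayed between 31 and 33 and that of genes that rose at 6. The median SD within groups was 0.11 at LOL and 0.12 at NOL for the 53 genes, and 0.12 at LOL and 0.11 at NOL for all clusters.

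The signed differences were set against the level of the genes. Across the 53 genes, which share the same 8 arrays and are not independent, Pearson's r between the NOL level and the log2 difference was 0.021 and Spearman's rho was -0.015. Of 17 genes with a NOL mean of 6 or more, 11 fell (64.7%), 4 rose (23.5%) and 2 did not pass. Of 32 genes between 4 and 6, 19 fell (59.4%), 2 rose (6.25%) and 11 did not pass. Among all clusters with a mean of at least 4 over both groups, fitted alone, 38.2% fell and 30.8% rose. Among clusters of every level, 20.5% fell and 20.5% rose. Of the 4 genes under 4, which were *CDT1*, *POLE2*, *DUT* and *CHAF1A*, 2 fell and 2 did not pass. The order of the genes by level was largely the same in both groups, with a Pearson's r of 0.87 between the LOL and the NOL means.

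**Figure D5:**
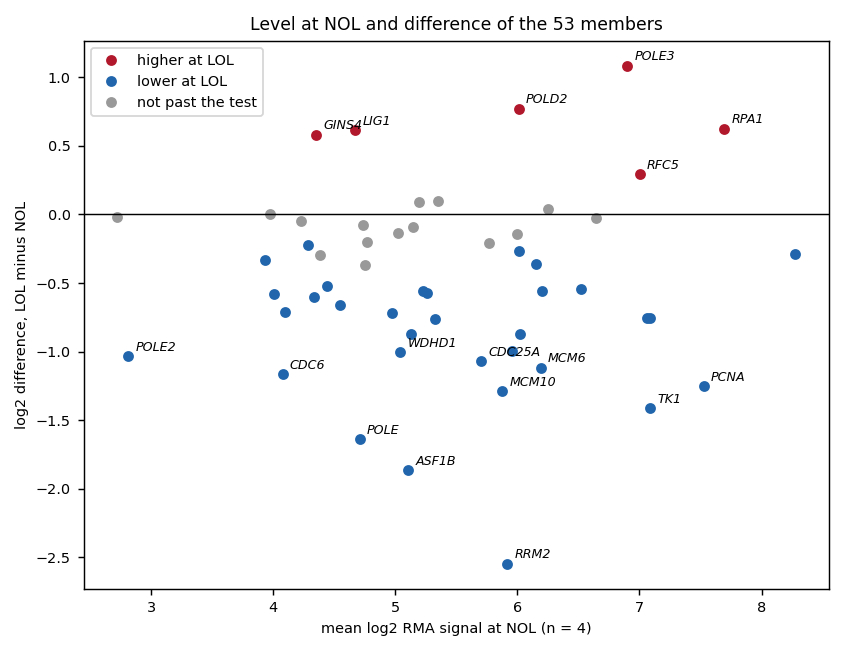
Log2 difference (LOL minus NOL, y axis) against the mean log2 signal at NOL (x axis, n = 4 arrays) for the 53 measured genes, with names on those changed over 2-fold or higher at LOL. Genes that fell lie at low and high levels alike, while the 6 genes that rose lie at NOL levels of 4.35 to 7.7. Pearson's r for the signed difference was 0.021 over the 53 genes, and *RRM2* lies lowest at a NOL level of 5.92.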

How the data were processed

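Each sample of granulosa cell RNA was hybridised to 1 single-colour array (Affymetrix Bovine Gene 1.0 ST). The deposited values are log2 signals that the authors made by RMA, a method that subtracts background, normalizes probe signals between arrays and condenses probes to 1 value per transcript cluster. Its version is not given in the sources used here. Values lie between 0.08 and 12.42 with 2 decimals, and nothing further was applied. Arrays have no sequencing depth, so the number of arrays and the signal over background, which was not given, limit precision.

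The labels name the oxygen level, which set the 2 groups. All 24415 clusters were fitted with limma 3.58.1 in R 4.3.3 (2 groups, moderated variances, two-sided) and adjusted by Benjamini-Hochberg. The fit was tested on simulated data. The simulated arrays had independent noise, so that test cannot show whether the samples here are independent. The methods' analysis of variance, the replicate number as a block, other scalings, a variance trend, a filter on dim clusters, the mean of a gene's clusters and each array left out were the alternatives.

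Gene symbols come from the platform annotation, which gives 18457 clusters exactly 1 symbol and 688 several, and 53 of 53 members matched the same symbol by gene ID in the RefSeq table. A gene with several clusters is given by its brightest. All members are named; values per array follow for up to 3 genes of each group with the largest change, the largest opposite change and up to 2 bright genes that did not pass, and further genes were chosen after their values were seen. Members and lists were chosen with earlier results of these data known. Promoter motifs were not analysed here.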

Additional observations from a re-analysis of the deposited data

Results flagged for a closer look

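In 4 of the 53 genes 1 array lay apart from the other 3 of its group, beyond Dixon's 95% critical value for 4 samples. Chance alone flags about 1 in 20 groups, and 106 groups of 4 arrays were examined. In *POLE3*, NOL 3 had a log2 signal of 6.77, under the 6.93 to 6.95 of the other NOL arrays. In *LIG1*, LOL 1 had 5.13, under the 5.33 to 5.36 of the other LOL arrays. In *DUT*, LOL 2 had 2.91, above the 2.62 to 2.65 of the other LOL arrays. In *CHAF1B*, LOL 3 had 5.21, under the 5.51 to 5.54 of the other LOL arrays. Leaving the array out kept the rises of *POLE3* and *LIG1* past the test, and *DUT* and *CHAF1B* did not pass with or without it.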

How the results depend on the processing

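Over 15 other settings, 8 of which leave out 1 array, the count of members that fell was 28 to 34 and that of members that rose was 6 in each. Lower over 2-fold were 8 to 12 members, and higher over 2-fold was 1 in each. In 45 of the 53 members, direction and call were the same in every setting that gave a value. With only clusters of a mean of at least 4, which drops 8 members, the median log2 difference of the members was -0.37, against -0.52 with all, and with 1 array left out it lay between -0.56 and -0.43. The replicate number as a block gave 33 members lower and 6 higher, with *ORC6* as the gain (adjusted p = 0.021). Arrays of the same number did not deviate together (r of -0.027 to 0.11, and 3 of 8 arrays correlated best with their own number), so the numbers were not taken as pairs. Differences near 0 turned sign and passed in no setting. *CDT1* was at -0.062 with median centring and -0.077 with quantile normalization, and between -0.059 and 0.068 with 1 array left out. *RFC4* was at -0.022 with median centring and between -0.016 and 0.088 with 1 array left out, *TYMS* at 0.020 with quantile normalization and between -0.053 and 0.00083. *DUT* lay between -0.088 and 0.028 and *E2F2* between -0.14 and 0.038 with 1 array left out. *ORC6* and *DBF4* passed in 5 and 6 settings, and *CDC45* lost its call in 6. Among the other replication factors, 2 rose with median centring in place of 4. The filter on dim clusters drops the falls of *ORC1*, *CDC6*, *POLE*, *POLE2*, *E2F8* and *CHAF1A*, and in origin licensing only *ORC6* then fell, by a call it gains under the filter (adjusted p = 0.031). The promoter motif search was not run.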
